A study of Rattus norvegicus with 138 samples.

Results

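The fatty acid uptake and oxidation genes are 35 rat genes that were chosen by symbol and by role, from the entry of a fatty acid into the muscle fiber to the last step of mitochondrial beta-oxidation. No cut on a measured value was used, but earlier results of these data were known when they were chosen. Of the 35 symbols, 34 had a row in the deposited table of 16181 gene symbols, and Acaa1a did not. Of these, 33 were tested, because their mean exceeded 1 TPM in at least 1 group. TPM, the unit used throughout, is a transcript's length-adjusted share of its library. In all, 11328 genes passed this limit. The one left out by this limit was Acot1. Acot4 was below the limit in control muscle and entered the test through the muscles of operated rats. Acaa1, which RefSeq gives as another name for Acaa1a, is described once and was not counted.

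Long-chain fatty acids enter a muscle fiber with the help of Cd36 and the transport protein Slc27a1, are carried in the cytosol by Fabp3, and are activated to acyl-CoA by synthetases such as Acsl1 and Acsl6. Carnitine palmitoyltransferase 1 then transfers the acyl group to carnitine at the outer mitochondrial membrane, the step that malonyl-CoA inhibits, and Slc25a20 and Cpt2 complete the transfer into the matrix. There, beta-oxidation shortens the chain in cycles of dehydrogenation, hydration, a further dehydrogenation and thiolysis, and the electrons reach the respiratory chain through the electron transfer flavoproteins. Oxidative muscle fibers draw on this route during sustained work, and the nuclear receptors Ppara and Ppard switch on many of its genes.

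All muscles were tibialis anterior (TA) muscles of inbred male Lewis rats of about 4 months. In operated rats, volumetric muscle loss (VML) was made in 1 TA with a 6 mm punch biopsy in the middle of the muscle, the other TA served as the contralateral muscle, and muscles were taken 3, 7, 14 or 28 days later. The defect was left without repair or filled with a minced muscle graft (MMG), that is, the excised tissue cut into small fragments and put back. Some rats also ran, under a protocol that the labels do not describe. The control muscles carry the label "Sham" and day 0, the study's text calls them unoperated, and they were the left and right TA of 2 rats. Non-running injured muscles without repair numbered 3, 8, 4 and 4 on days 3, 7, 14 and 28, and those with a graft numbered 7, 8, 4 and 4. Their contralateral muscles numbered 2, 4, 2 and 2 without repair and 2, 6, 2 and 2 with a graft. Running injured muscles numbered 8, 4, 4 and 2 without repair and 6, 4, 4 and 2 with a graft, and running contralateral muscles numbered 2 in each group from day 3 to day 14. In all, 116 libraries of 114 muscles from 78 rats were used.

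A library was kept when at least 7000 symbols exceeded 1 TPM. The kept libraries had between 7866 and 10948 such symbols, and 13 libraries with 901 to 5712 were dropped. TPM is a share of each library and keeps no read depth, so no counting error can be given. The control rats and the operated rats carry separate label series, so series and operation cannot be told apart in any comparison with control. The left and right muscles of 1 rat are not independent animals, and the p-values measure the spread between muscles.

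Among the 4 control muscles, replicate 4 stood apart. It had the lowest value of the 4 for 31 of the 34 members, for example 167 TPM of Acadm against 424, 472 and 428 TPM in the other 3 and 106.1 TPM of Hadha against 223, 238 and 245 TPM. The calls against control that depend on it are given with and without it. It also moved many estimates that did not pass the test by over 1.5 times, and some of these are given both ways.

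In injured muscle, markers of muscle fibers and of other cells also changed. On day 3 without repair, where 48.3% of all genes rose and 4.24% fell, all 18 leukocyte markers tested rose against control, with a median log2 fold change of 5.69, and their summed level was 6854 to 9408 TPM against 64.7 to 102.4 TPM in control. The 10 fibroblast and fibroadipogenic markers tested also all rose, with a median of 5.099. Of 21 fast and general fiber markers tested, 20 fell, with a median of -2.12, and their summed level was 70208 to 95013 TPM against 330830 to 403260 TPM. Of 9 adipocyte markers tested, 2 rose on day 3 and 6 on day 28, and of 11 endothelial markers 8 and 4 rose, where 21.1% of all genes rose on day 28. The defining adipocyte gene Adipoq had a log2 fold change of 0.34 ± 0.68 (SE) on day 3 and 2.30 ± 0.63 on day 28. The part of these cells in the values below was not tested. In a bulk sample, fewer cells of a type and less RNA per cell cannot be told apart.

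The promoters of 4 members are shown because of what the letters or the data hold: Cpt1a was higher than control on every day, Acadvl and Acot4 were the only members with a peroxisome proliferator response element-like repeat, and Hadha shares its promoter window with Hadhb. The windows are those of RefSeq on build GRCr8, from 250 bases before to 50 bases after the annotated start, and 29 of the 35 listed members matched the promoter table. No window was found under the symbols Cpt1b, Acadl, Acaa2, Ech1, Decr1 and Ppard. The Cpt1a window is chr1:209995910-209996209 on the plus strand, with no letters capitalised because neither motif was found.
Cpt1a: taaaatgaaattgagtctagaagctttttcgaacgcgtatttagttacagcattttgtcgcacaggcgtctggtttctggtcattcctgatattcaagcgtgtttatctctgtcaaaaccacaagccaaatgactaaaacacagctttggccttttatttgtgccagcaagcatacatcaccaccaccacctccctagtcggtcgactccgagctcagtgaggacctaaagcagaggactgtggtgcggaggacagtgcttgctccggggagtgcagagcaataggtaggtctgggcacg
The Acadvl window is chr10:55236656-55236955 on the minus strand, and the Acot4 window is chr6:109399604-109399903 on the plus strand. Capitals mark the repeat, AGGTCANAGGTCA on either strand with at most 1 mismatch.
Acadvl: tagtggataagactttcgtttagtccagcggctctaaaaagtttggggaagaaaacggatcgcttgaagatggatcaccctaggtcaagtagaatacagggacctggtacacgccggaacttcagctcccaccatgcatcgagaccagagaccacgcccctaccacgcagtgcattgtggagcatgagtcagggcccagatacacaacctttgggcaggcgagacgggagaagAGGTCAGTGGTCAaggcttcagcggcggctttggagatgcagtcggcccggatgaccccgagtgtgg
Acot4: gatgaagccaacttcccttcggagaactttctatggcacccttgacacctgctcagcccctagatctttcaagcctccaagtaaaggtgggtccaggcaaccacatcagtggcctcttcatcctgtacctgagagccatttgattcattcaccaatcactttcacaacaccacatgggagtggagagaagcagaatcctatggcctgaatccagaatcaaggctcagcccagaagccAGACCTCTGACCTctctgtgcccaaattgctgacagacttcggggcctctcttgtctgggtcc
The Hadha window is chr6:31907551-31907850 on the plus strand. Capitals mark the 200 bases that it shares with the Hadhb window, which lies on the minus strand.
Hadha: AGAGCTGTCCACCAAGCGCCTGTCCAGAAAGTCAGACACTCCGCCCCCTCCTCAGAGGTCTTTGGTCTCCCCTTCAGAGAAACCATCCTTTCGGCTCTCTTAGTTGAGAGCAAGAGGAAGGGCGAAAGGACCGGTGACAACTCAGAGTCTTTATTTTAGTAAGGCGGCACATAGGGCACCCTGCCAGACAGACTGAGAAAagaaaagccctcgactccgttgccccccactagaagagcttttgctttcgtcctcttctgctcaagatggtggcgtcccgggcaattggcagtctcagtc
In Acadvl the repeat lay from 17 to 5 bases before the start and read AGGTCAGTGGTCA. In Acot4 it lay from 13 to 1 bases before the start and read AGGTCAGAGGTCT on the opposite strand. Among 33469 promoters, 0.439% held this repeat, against 2 of the 29 members. The estrogen-related receptor motif TNAAGGTCA stood in 1.198% of all promoters and in 0 of the 29. These matches describe letters in a window and not sites of binding. Hadha and Hadhb, whose start sites lie 301 bases apart on opposite strands, encode the subunits of the trifunctional protein. Whether the counting used strand is not given in the sources used here.

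The first comparison asked how the injured muscle without repair differed from control on each day, in rats that did not run. A gene was called when its Benjamini-Hochberg adjusted p in limma was under 0.05 and its log2 fold change on the log2(TPM + 1) scale was beyond 1. This scale understates the change of genes near 1 TPM. Over all genes tested, the median log2 fold change was 0.96, 0.91, 0.53 and 0.52 on days 3, 7, 14 and 28, and it was 0.31, 0.32, 0.20 and 0.20 after TPM was divided by size factors, which centre each muscle on the genes above 1 TPM in every muscle. The members' median was -0.46, -0.06, 0.15 and 0.24 on the deposited scale and -1.33, -0.86, -0.30 and -0.23 with size factors. On the deposited scale without control replicate 4 it was -0.51, -0.29, -0.02 and 0.07, beside 0.83, 0.78, 0.39 and 0.38 for all genes, so that muscle turned its sign on day 14. On both scales the members' median was below that of all genes on every day. On day 3, 4 of 33 members rose and 5 fell, where 48.3% of all genes rose and 4.24% fell. On day 7, 3 rose and 1 fell, against 45.6% and 2.42%. On day 14, 2 rose and 0 fell, against 25% and 0.547%, and on day 28, 3 rose and 0 fell, against 21.1% and 0.212%.

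The split between higher and lower calls depended on the scaling. With size factors, 2 members were called higher and 22 lower on day 3, against 28.4% and 12.3% of all 11206 genes tested on that scale, and 2 higher and 14 lower on day 7, against 25.9% and 9.5%. On day 14 it was 2 higher and 0 lower, against 18.4% and 2.85%, and on day 28 likewise 2 and 0, against 13.8% and 1.58%. By adjusted p alone on the deposited scale, 6 members were higher and 17 lower on day 3, against 74.6% and 10.6% of all genes, and 8 higher and 12 lower on day 7, against 78.8% and 9.44%. On day 14 these were 8 and 2, against 65.6% and 6.64%, and on day 28 they were 12 and 0, against 67.9% and 3.93%. Injured and control muscles did not overlap for 17, 8, 5 and 7 of the 33 members on the 4 days, against 77.4%, 70.6%, 64.4% and 63.5% of all genes. Without control replicate 4, the members called were 8, 5, 2 and 2 on the 4 days, in place of 9, 4, 2 and 3, against 48.6%, 43%, 22% and 16.8% of all genes. There were then 5 higher on each day by adjusted p alone, against 70.2%, 74.1%, 54.8% and 54.8%, and 19, 16, 4 and 0 lower, against 12.6%, 11.6%, 9.02% and 5.05%.

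**Figure D1:**
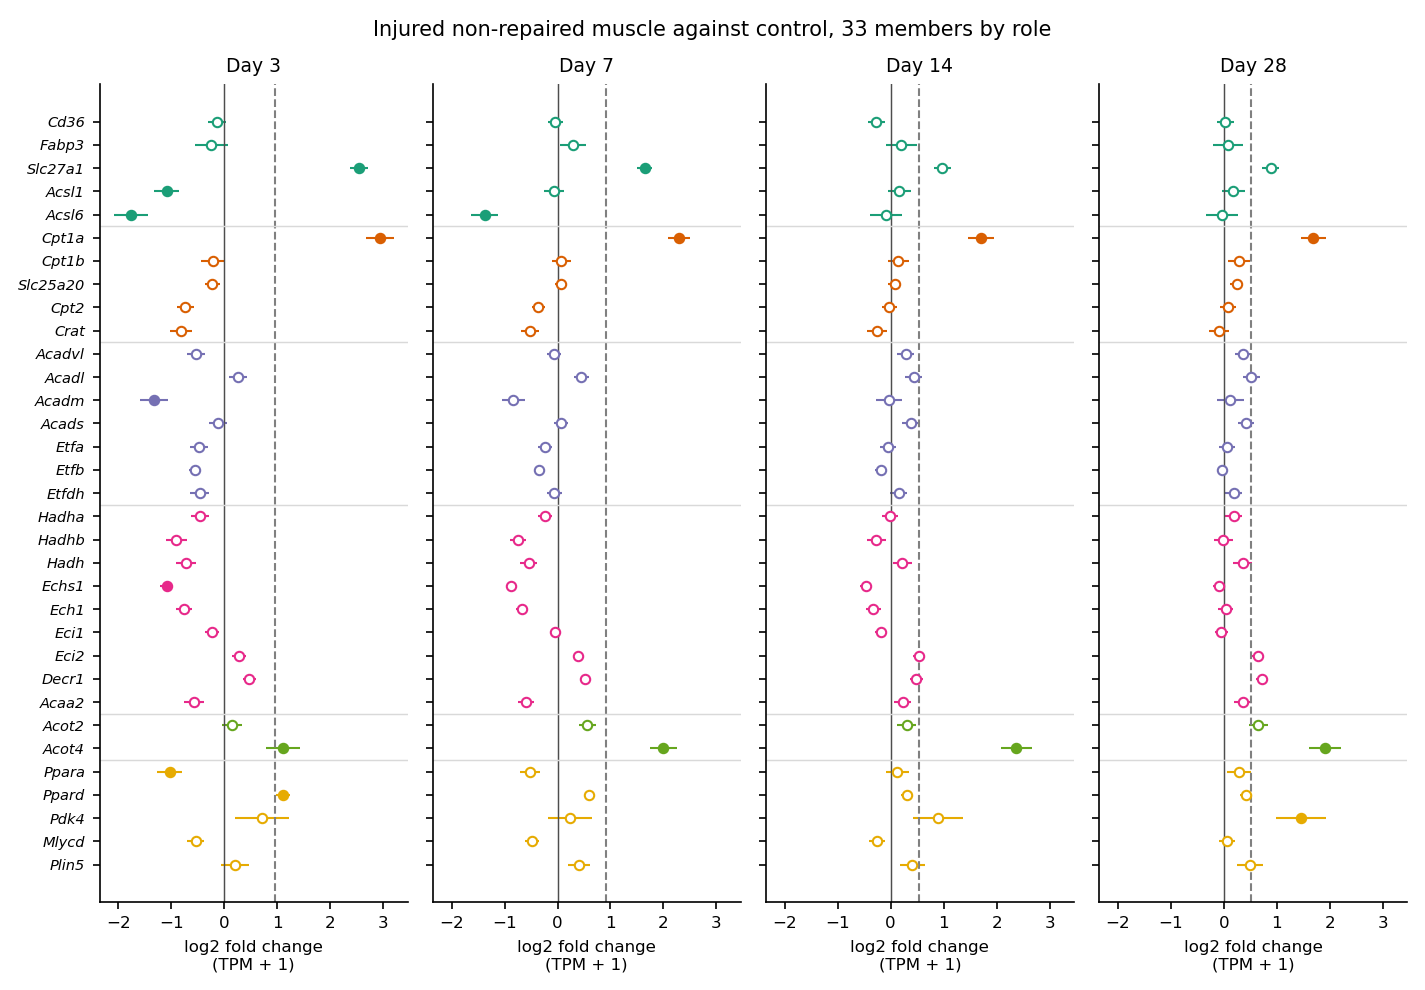
Log2 fold change (TPM + 1) of the 33 tested members in non-running injured non-repaired muscle against control on days 3, 7, 14 and 28 (one panel a day), ordered and coloured by role. Points are estimates with bars of 1 SE, filled points are called, the solid line is 0 and the dashed line is the median of all 11328 genes. Most points lie left of the dashed line on days 3 and 7, and Cpt1a is filled in every panel.

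At the entry of fatty acids, the transporters and synthetases did not move together. Slc27a1, which brings long-chain fatty acids into the cell, was 3.08, 3.89, 3.17 and 1.88 TPM in control and 27.7, 21.6 and 17.7 TPM in injured muscle on day 3. On day 7 the lowest, median and highest of 8 injured muscles were 8.54, 12.04 and 15.5 TPM, on day 14 the values were 5.43, 6.48, 7.87 and 7.47 TPM, and on day 28 they were 6.72, 5.79, 5.51 and 7.28 TPM. Every injured muscle was above every control muscle. Its log2 fold change was 2.55 ± 0.17 (SE) on day 3, with an adjusted p of 4.07e-24, and 1.65 ± 0.14 on day 7, with an adjusted p of 4.26e-19. With size factors these were 1.81 and 0.99. On day 14 the log2 fold change was 0.98 ± 0.16, which was beyond 1 without control replicate 2 (1.08), control replicate 3 (1.007) or injured replicate 1 (1.07), and was 0.83 without control replicate 4. With a pseudocount of 0.1 TPM it was called on days 14 (1.19) and 28 (1.08).

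Acsl6, a synthetase of long-chain acyl-CoA, fell. It was 94.3, 99.99, 89.6 and 55.2 TPM in control, 16.97, 29.2 and 26.4 TPM on day 3, and 23.3, 29.04 and 52.6 TPM as the lowest, median and highest value on day 7. On day 14 it was 82.6, 87.5, 71.9 and 68.8 TPM and on day 28 it was 82.1, 85.4, 79.8 and 76.1 TPM. The injured muscles were all below control on days 3 and 7 and within its range on days 14 and 28. On the log2 scale it differed from control by -1.77 ± 0.32 on day 3 and -1.38 ± 0.26 on day 7, with adjusted p of 8e-07 and 1.34e-06 (-2.63 and -2.17 with size factors), and between day 14 and day 7 it rose by 1.28 ± 0.26 (adjusted p of 1.69e-05).

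Acsl1, the main synthetase of oxidative tissues, was 139.3, 148, 141.3 and 70.7 TPM in control and 43.7, 71.04 and 55.6 TPM on day 3. On day 7 it was 70.7, 119.7 and 160.1 TPM as lowest, median and highest, on day 14 it was 115, 150.3, 143.8 and 131.1 TPM, and on day 28 it was 159, 141.7, 147 and 102.2 TPM. On day 3 the highest injured value lay just above control replicate 4. The log2 fold change of -1.09 ± 0.23 on day 3 passed the test (adjusted p of 1.64e-05) but was under 1 in size without control replicate 2 (-0.99) or without injured replicate 1 (-0.92). With size factors it was -1.96, and with all mapped libraries the same estimate had an adjusted p of 0.141. Between day 7 and day 3 it rose by 1.03 ± 0.21 (adjusted p of 3.26e-05), while the value was 0.86 without that same injured muscle and 0.67 (adjusted p of 0.470) with all mapped libraries, and neither was called.

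The other members of this step were not called on any day on the deposited scale. Cd36, the fatty acid translocase, was 144.5, 156, 158 and 91.8 TPM in control, 104.6, 138.5 and 124 TPM on day 3, 107.7, 133.9 and 166 TPM as lowest, median and highest on day 7, 85.5, 124.6, 132.9 and 107.3 TPM on day 14, and 153, 151, 140.4 and 110.1 TPM on day 28. Fabp3, the fatty acid binding protein of heart and muscle, was 435, 514, 440.1 and 294 TPM in control, 329, 402 and 316 TPM on day 3, 309, 513 and 840.2 TPM on day 7, 334, 578, 655 and 401 TPM on day 14, and 596, 531, 517 and 219.7 TPM on day 28. For both, the injured muscles overlapped control on every day. Their log2 fold changes ran from -0.27 to 0.03 for Cd36 and from -0.25 to 0.29 for Fabp3. With size factors both were called lower on day 3, at -1.02 and -1.13. Without control replicate 4 the day 3 values were -0.33 and -0.41, and the range of Cd36 was -0.46 to -0.15 and that of Fabp3 -0.41 to 0.13.

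At the carnitine shuttle, both outer-membrane palmitoyltransferases were measured and their patterns differed. Cpt1a, the form known from liver and many other cells, was 1.17, 1.64, 2.27 and 0.81 TPM in control and 22.2, 19.8 and 12.03 TPM on day 3. On day 7 the lowest, median and highest of the 8 muscles were 7.09, 11.9 and 15.6 TPM, on day 14 the muscles had 4.64, 6.31, 8.50 and 8.71 TPM, and on day 28 they had 5.79, 5.44, 6.94 and 9.65 TPM. No injured muscle overlapped control on any day. The log2 fold change was 2.94 ± 0.26, 2.30 ± 0.21, 1.70 ± 0.24 and 1.69 ± 0.24 on days 3, 7, 14 and 28, with adjusted p of 4.56e-18, 1.27e-17, 1.97e-09 and 3.51e-09. With size factors the values were 2.30, 1.74, 1.45 and 1.43, and Cpt1a was called on each day on that scale too.

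Cpt1b, the form of heart and skeletal muscle, was 142.8, 150, 151 and 112 TPM in control, 95.5, 140.2 and 124 TPM on day 3, 84.5, 161 and 195 TPM as lowest, median and highest on day 7, 136.7, 155, 161 and 161 TPM on day 14, and 169.5, 169, 202 and 141.5 TPM on day 28. It stayed the more abundant form in every muscle and its injured values overlapped control on every day. The estimate was -0.22 ± 0.22 on day 3 and 0.29 ± 0.21 on day 28 (-0.19 with size factors and 0.19 without control replicate 4), and it was not called on the deposited scale. With size factors the day 3 value was -1.09, which was called. TPM is a length-adjusted measure, so both can be set side by side: Cpt1a made up 0.715% to 1.48% of their summed TPM in control, 8.81% to 18.9% in injured muscle on day 3, 3.51% to 15.6% on day 7, 3.28% to 5.1329% on day 14 and 3.11% to 6.39% on day 28. In grafted muscle the share was 11.9% to 31.3% on day 3 and 2.90% to 4.93% on day 28. All injured muscles had a larger share than all control muscles, and this share does not depend on the scaling of a library.

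The rest of the shuttle was not called on the deposited scale. Slc25a20, the carnitine-acylcarnitine carrier of the inner membrane, was 72.1, 79.8, 77.2 and 67.2 TPM in control, 64.7, 67.1 and 57.8 TPM on day 3, 50.7, 81.7 and 94.2 TPM on day 7, 65.7, 84.6, 82.3 and 80.1 TPM on day 14, and 101.1, 87.6, 94.0 and 71.2 TPM on day 28. Its injured values were just below the control range on day 3 and overlapped it afterwards, with log2 fold changes from -0.23 to 0.24. Cpt2, which reforms acyl-CoA in the matrix, had -0.74 ± 0.16 on day 3, and Crat, which moves acetyl and other short groups onto carnitine, had -0.82 ± 0.20. Both passed the adjusted p on day 3 but not the size limit. With size factors Slc25a20, Cpt2 and Crat were called lower on day 3, at -1.09, -1.60 and -1.70.

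**Figure D2:**
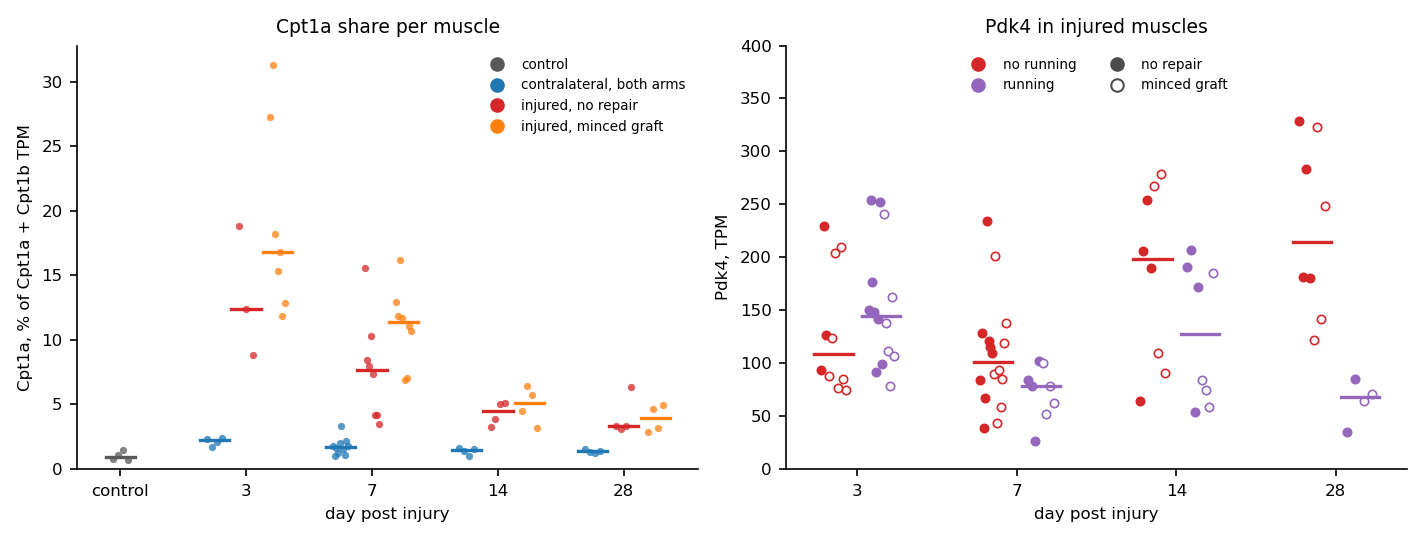
Left, Cpt1a as a percentage of the summed TPM of Cpt1a and Cpt1b in each non-running muscle, by day post injury, with bars at group medians and contralateral muscles of both arms pooled. Right, Pdk4 in TPM in each injured muscle with a group, running and non-running, with filled points for no repair, open points for the minced graft and bars at the median of both arms together. The Cpt1a share is highest on day 3 in injured muscle, and on day 28 the 4 running muscles plotted, which leave out 4 rats with conflicting labels, lie between 35.4 and 85.2 TPM of Pdk4, below all non-running ones.

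Among the acyl-CoA dehydrogenases, which open each turn of beta-oxidation, the member for medium chains was called on the deposited scale. Acadm was 424, 472, 428 and 167 TPM in control and 102.6, 166 and 151 TPM on day 3. These 3 non-running muscles were all below control, the highest by less than 1 TPM from replicate 4. In running muscle without repair, replicate 6 of day 3 had 205 TPM, above that control. On day 7 the lowest, median and highest were 122, 210.2 and 299 TPM, on day 14 the muscles had 290.3, 400.2, 369 and 302 TPM, and on day 28 they had 487, 432, 384 and 249.1 TPM. On the log2 scale it differed from control by -1.33 ± 0.27 on day 3 (adjusted p of 5.53e-06) and -0.83 ± 0.22 on day 7. Without control replicate 4 these were -1.68 and -1.18, and the second was then called. With size factors they were -2.21 and -1.64, both called.

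Acadvl, for very long chains, was 154, 192, 174 and 110.2 TPM in control, 94.3, 119 and 106.1 TPM on day 3, 98.3, 151 and 184 TPM as lowest, median and highest on day 7, 156, 215, 205 and 183 TPM on day 14, and 231, 216, 214 and 145 TPM on day 28. The day 3 muscles were at the level of control replicate 4 and below the other 3, and from day 7 on the groups overlapped. Its log2 fold change was -0.54 ± 0.17 on day 3 and 0.36 ± 0.16 on day 28, or -1.41 and -0.12 with size factors. Acadl, for long chains, and Acads, for short chains, had values of 0.26 ± 0.18 and -0.12 ± 0.17 on day 3 and of 0.52 ± 0.16 and 0.42 ± 0.16 on day 28. With size factors these were -0.62 and -0.99, then 0.04 and -0.05, and neither was called on either scale. Without control replicate 4 they were 0.06 and -0.48 on day 3 and 0.33 and 0.07 on day 28, and Acadvl on day 28 was 0.20.

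Etfdh, which hands the electrons to ubiquinone, was 88.9, 90.9 and 46.0 TPM in control replicates 1, 3 and 4 and higher in replicate 2, and in injured muscle it was 44.4, 69.0 and 58.5 TPM on day 3, 52.0, 74.4 and 95.8 TPM on day 7, 72.7, 93.6, 97.8 and 86.7 TPM on day 14, and 102.5, 96.2, 93.8 and 68.1 TPM on day 28. It overlapped control on each day, on day 3 through replicate 4 alone. Its log2 fold change on day 3 was -0.47 ± 0.17, or -0.72 without that replicate. The flavoprotein subunits Etfa and Etfb had -0.48 ± 0.16 and -0.56 ± 0.11 on that day, and none of the 3 was called on the deposited scale. With size factors all 3 were beyond -1.

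For the later steps, 1 of 9 tested members was called on the deposited scale, and with size factors 7 were called lower on day 3. Echs1, the short-chain enoyl-CoA hydratase, was 198, 197, 204 and 143.4 TPM in control, 81.01, 89.5 and 87.4 TPM on day 3, and 68.9, 105.2 and 119 TPM as lowest, median and highest on day 7. On day 14 it was 123, 132.6, 148 and 128.9 TPM and on day 28 it was 200.3, 191, 156 and 147 TPM. Injured muscle was below control without overlap on days 3 and 7. The log2 fold change was -1.09 ± 0.12 on day 3 (adjusted p of 9.61e-14) and -0.88 ± 0.10 on day 7, or -1.96 and -1.68 with size factors. With all mapped libraries the day 3 estimate was the same and its adjusted p was 0.133.

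Hadha, the subunit of the trifunctional protein with hydratase and dehydrogenase activity, was 223, 238, 245 and 106.1 TPM in control, 128.8, 155 and 137.6 TPM on day 3, 109, 173 and 197 TPM on day 7, 166, 204, 209 and 188 TPM on day 14, and 263, 241, 210.0 and 174 TPM on day 28. Its day 3 muscles lay between control replicate 4 and the other 3. The log2 fold change on day 3 was -0.46 ± 0.17, or -0.75 without replicate 4, and that of its partner Hadhb, the thiolase subunit, was -0.91 ± 0.19, or -1.06 and called without control replicate 4. Hadh and Acaa2, a dehydrogenase and a thiolase of shorter chains, had -0.72 ± 0.19 and -0.57 ± 0.18, and Ech1, an isomerase of unsaturated chains, had -0.76 ± 0.15. With size factors Hadha, Hadhb, Hadh, Acaa2 and Ech1 were all called lower on day 3, at -1.33, -1.78, -1.59, -1.44 and -1.63.

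The auxiliary enzymes of unsaturated fatty acids had values on both sides of 0. Decr1, the dienoyl-CoA reductase, was 76.0, 88.2, 74.9 and 46.0 TPM in control, 103.05, 109.8 and 78.8 TPM on day 3, 80.3, 101.2 and 112 TPM on day 7, 84.02, 98.8, 114 and 96.1 TPM on day 14, and 132.8, 114, 119 and 99.5 TPM on day 28. All day 28 muscles were above all controls. The estimate was 0.47 ± 0.12 on day 3 and 0.73 ± 0.11 on day 28, within the size limit, and -0.40 and 0.25 with size factors, so its direction on day 3 turned with the scaling. Without control replicate 4 the day 3 estimate of Decr1 was 0.27 and that of Eci2 was 0.08. The isomerase Eci2 had 0.27 ± 0.13 and 0.64 ± 0.12 (-0.59 and 0.17 with size factors), and the isomerase Eci1 had -0.24 ± 0.13 and -0.05 ± 0.12 (-1.11, called lower, and -0.53 with size factors). Acaa1, the peroxisomal thiolase, had 0.69 ± 0.09 on day 3 and 0.24 ± 0.09 on day 28 (-0.16 and -0.22 with size factors).

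Of the acyl-CoA thioesterases, which release the free acid from an acyl-CoA, Acot4 was the one called. It was 0.53, 0.68, 0.55 and 0.05 TPM in control and 1.45, 3.13 and 1.85 TPM in injured muscle on day 3. On day 7 it was 2.99, 4.70 and 8.72 TPM as lowest, median and highest, on day 14 it was 5.91, 11.4, 5.17 and 4.73 TPM, and on day 28 it was 4.08, 5.50, 4.13 and 3.87 TPM. Each of these injured muscles was above each control muscle. On the log2 scale it differed from control by 1.10 ± 0.32, 1.999 ± 0.26, 2.38 ± 0.30 and 1.91 ± 0.30 on days 3, 7, 14 and 28, with adjusted p of 0.00131, 3.62e-11, 4.63e-11 and 4.79e-08. Acot4 passed the 1 TPM limit only through groups of operated rats, so these p-values are not free of that selection. The day 3 value was under 1 without control replicate 4 (0.95) or injured replicate 2 (0.89), and with size factors (0.76). Acot2 was not called on any day, and Acot1 was listed at 0 TPM in all 4 controls and at 0.19, 0.15 and 0.30 TPM on day 3, with at most 0.37 TPM in any muscle. Acot1, Acot2 and Acot4 are neighbouring paralogs on chromosome 6 of GRCr8, and how their shared reads were split between them is uncertain.

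Of the regulators, the 2 peroxisome proliferator-activated receptors had log2 fold changes of opposite sign on day 3, that of Ppard near the median of all genes. Ppara, the form that drives fatty acid oxidation genes during fasting, was 5.51, 9.17, 6.03 and 4.42 TPM in control, 1.41, 3.55 and 2.77 TPM on day 3, and 2.63, 4.045 and 5.95 TPM as lowest, median and highest on day 7. On day 14 it was 5.66, 8.39, 6.86 and 6.22 TPM and on day 28 it was 10.01, 8.95, 6.85 and 5.53 TPM. These non-running day 3 muscles were below all controls, while running replicate 6 without repair had 4.65 TPM on that day, within the control range. The log2 fold change of -1.04 ± 0.24 on day 3 (adjusted p of 5.64e-05) became -0.86 without control replicate 2 and -0.77 without injured replicate 1. It was -1.74 with size factors, and on day 7 the value of -0.52 was -1.20 and called on that scale.

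Ppard, the form expressed in most tissues and in oxidative fibers, was 8.66, 10.2, 10.1 and 5.86 TPM in control, 18.9, 20.9 and 18.8 TPM on day 3, 11.8, 12.8 and 16.7 TPM on day 7, 9.65, 11.8, 10.7 and 11.2 TPM on day 14, and 11.01, 11.6, 12.4 and 12.1 TPM on day 28. It was above control without overlap on days 3, 7 and 28. For Ppard the log2 fold change on day 3 was 1.11 ± 0.13 (adjusted p of 1.11e-12), and it was 0.95 without control replicate 4 and 0.30 with size factors. The median of all genes on that day was 0.96, or 0.31 with size factors, so Ppard lay near the shift of all genes. Non-running contralateral muscles of day 3 had 13.6 to 17.4 TPM of Ppard.

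Pdk4, a kinase that shuts pyruvate dehydrogenase when fat is burned, spread widely. It was 135.2, 179.7, 51.7 and 41.5 TPM in control, with the lower pair in 1 rat, and 93.8, 229.8 and 126.2 TPM on day 3. On day 7 it was 38.8, 112 and 234 TPM as lowest, median and highest, on day 14 it was 64.3, 206, 254 and 189.7 TPM, and on day 28 it was 329, 181, 283 and 181 TPM. Only the day 28 muscles were all above the controls. Its log2 fold change on day 28 was 1.45 ± 0.48 (adjusted p of 0.00507), and without control replicate 4 it was 1.11 with an adjusted p of 0.0516. The call was also lost with size factors (0.98, adjusted p of 0.0533) and with all mapped libraries, where the estimate was the same 1.45 and its adjusted p 0.0577. On day 14 it was 0.89 ± 0.48 and not called, but it was called without control replicate 1 (1.11), control replicate 2 (1.25) or injured replicate 1 (1.33). Without control replicate 4 it was 0.55, and with size factors 0.43.

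Mlycd, which breaks down the Cpt1 inhibitor malonyl-CoA, was 36.3, 39.6, 43.8 and 30.4 TPM in control and 24.6, 26.7 and 24.4 TPM on day 3, all below control. Its log2 fold change was -0.55 ± 0.17 on day 3, within the size limit, and -1.40 and called lower with size factors. Plin5, the lipid droplet protein of oxidative tissue, was 5, 6.51, 6.06 and 3.75 TPM in control, 5.58, 7.12 and 5.89 TPM on day 3, 4, 7.21 and 12.04 TPM on day 7, 5.84, 7.68, 8.42 and 7.43 TPM on day 14, and 10.5, 8.71, 8.05 and 4.91 TPM on day 28. It overlapped control on each day and was not called.

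**Figure D3:**
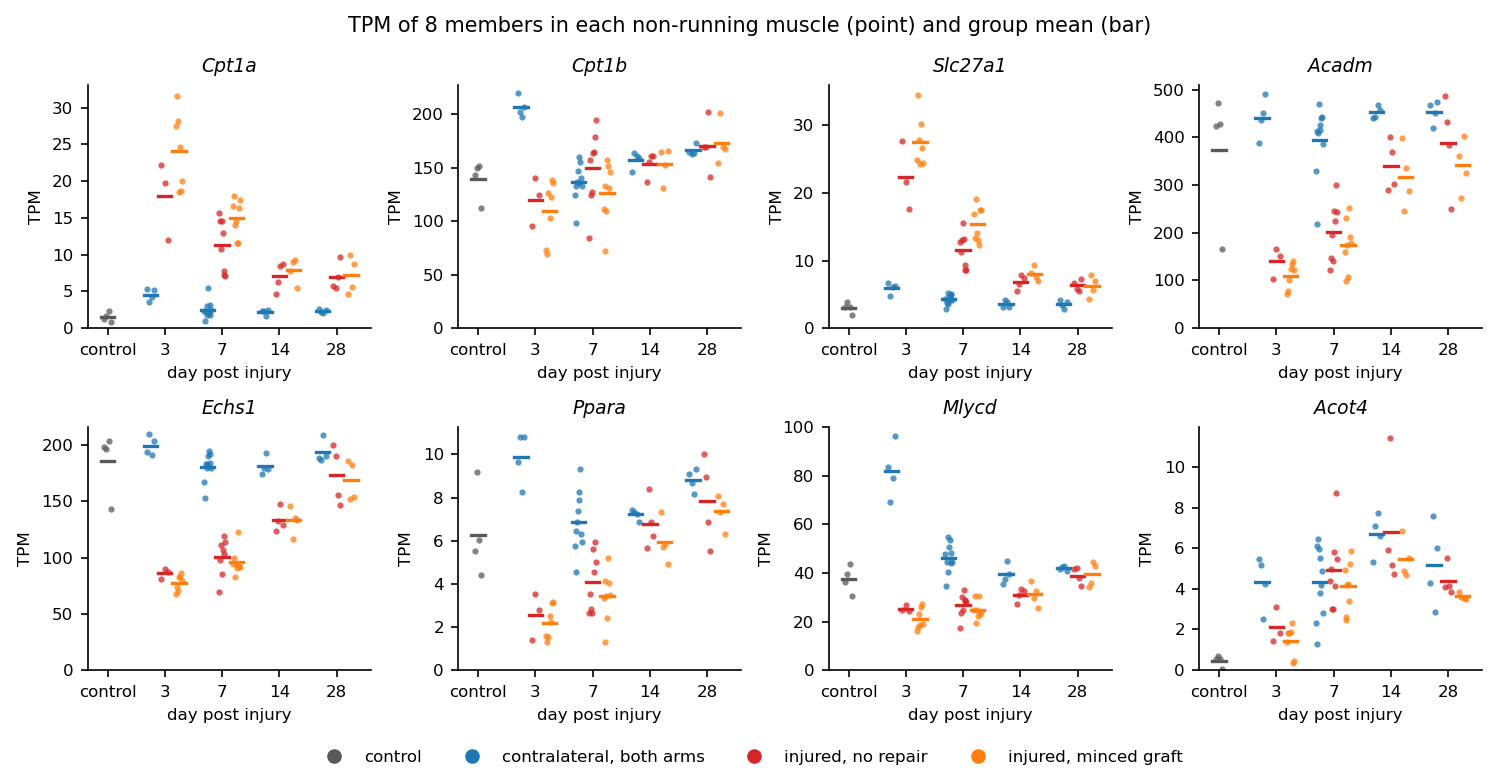
TPM of 8 members in every non-running muscle, by day post injury. Points are muscles, bars are group means, and colours give control, contralateral (both arms), injured without repair and injured with a minced graft. Injured muscles lie above the rest for Cpt1a and Slc27a1, below for Acadm, Echs1 and Ppara on day 3, and for Acot4 all contralateral and all non-repaired injured muscles plotted lie above the 4 control muscles.

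The differences between successive days were taken in non-running injured muscle without repair. From day 3 to day 7, 1 member (Acsl1) was called higher and 0 lower, against 2% and 5.35% of all genes. From day 7 to day 14, 1 member (Acsl6) was called higher and 0 lower, against 0.724% and 6.1%. From day 14 to day 28, 0 members were called by limma, against 0.106% higher and 0.353% lower, and 4 members had an unadjusted p under 0.05, against 13.8% of all genes. By adjusted p alone, 11, 14 and 0 members differed over the 3 intervals, against 38.7%, 71% and 1.28%. With size factors, 1 was called higher and 0 lower in the first interval (2.16% and 4.47%), 4 and 0 in the second (2.24% and 2.07%) and 0 and 0 in the third (0.107% and 0.58%). The 4 were Acsl6 (1.61), Acaa2 (1.16), Acadm (1.14) and Hadh (1.10). The members' median difference was 0.21, 0.22 and 0.14 over the 3 intervals, beside -0.06, -0.40 and -0.01 for all genes. With size factors it was 0.28, 0.55 and 0.12, beside 0.0044, -0.11 and -0.02.

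The second comparison compared each non-running injured group with the contralateral group of its day and arm, which shares the operated rats' label series. Without repair, 2 members rose and 9 fell on day 3, where 32.3% of all genes rose and 5.92% fell. On day 7, 2 rose and 1 fell (45.3% and 2.01%), and on days 14 and 28, 1 rose and 0 fell (20.9% and 0.168%, then 13.1% and 0.212%). With size factors the calls were 2 higher and 22 lower on day 3, against 23.5% and 10.9%, and 1 higher and 13 lower on day 7, against 22.3% and 9.29%. They were 0 and 0 on days 14 and 28, against 12.7% and 1.78%, then 8.66% and 0.875%. By adjusted p alone on the deposited scale 28, 17, 3 and 5 members differed, against 71.9%, 88.3%, 63.7% and 49.7% of all genes. The 2 groups did not overlap for 30, 7, 11 and 7 members, against 78.5%, 71.5%, 80.9% and 75.6%. The members' median was -0.79, -0.10, -0.12 and -0.01 and that of all genes 0.54, 0.91, 0.50 and 0.38. With size factors these were -1.19, -0.95, -0.60 and -0.36, beside 0.20, 0.25, 0.13 and 0.12.

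Cpt1a was the member higher than contralateral muscle on all 4 days. The day 3 contralateral muscles had 5.26 and 3.5 TPM of Cpt1a, those of day 14 had 2.38 and 2.36 TPM and those of day 28 had 2.60 and 2.22 TPM, each below every injured muscle of its day. For Cpt1a the log2 fold change was 1.80 ± 0.31, 2.10 ± 0.21, 1.22 ± 0.29 and 1.196 ± 0.29, with adjusted p of 3.53e-07, 8.46e-16, 0.000264 and 0.000595. With size factors it was 0.85 on day 14 and 0.95 on day 28, under the size limit. Slc27a1, at 6.71 and 4.76 TPM in day 3 contralateral muscle, was higher by 1.78 ± 0.21 on day 3 and by 1.43 ± 0.14 on day 7, or 1.41 and 0.70 with size factors.

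The 9 members that fell on day 3 were Ppara (-1.70 ± 0.29), Acadm (-1.58 ± 0.32), Mlycd (-1.56 ± 0.20), Acsl6, Acsl1, Echs1, Ech1, Hadhb and Acot4. In the 2 contralateral muscles Ppara was 9.66 and 10.8 TPM, Acadm was 387 and 437 TPM and Mlycd was 83.6 and 69.5 TPM, and none overlapped the injured muscles. Mlycd in these contralateral muscles was above the 30.4 to 43.8 TPM of control, and the difference from injured muscle was correspondingly larger than against control. The call of Acot4 (-1.04 ± 0.39, adjusted p of 0.0129) was lost without either contralateral muscle (-1.01 and -1.07) and without injured replicate 1 (-0.88) or 3 (-0.99), and that of Hadhb was lost without contralateral replicate 1 (-0.999). With all mapped libraries the day 3 calls of Hadhb, Ech1, Echs1, Acsl1, Mlycd and Acot4 were lost, with adjusted p of 0.0528 to 0.290. The added libraries were not from these day 3 groups, so the estimates stayed the same and only the shared spread differed. On day 7 the member that fell was Acsl6 (-1.11 ± 0.26, with 71.5, 47.4, 74.1 and 87.2 TPM in the contralateral muscles), which became -0.99 without contralateral replicate 6. Here the lowest contralateral muscle lay below the highest injured one, at 52.6 TPM.

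In the grafted arm, 2 members rose and 16 fell on day 3, where 37.2% and 6.8% of all genes did. On day 7, 2 rose and 2 fell (42.9% and 3.35%), on day 14, 1 rose and 0 fell (25.6% and 0.53%), and on day 28, 1 rose and 0 fell (18.8% and 0.3%). With size factors there were 2 higher and 27 lower on day 3 (24.6% and 12.6%), 1 and 20 on day 7 (25% and 10.2%), 1 and 4 on day 14 (15.5% and 3.64%) and 0 and 0 on day 28 (11.5% and 1.56%). By adjusted p alone 30, 24, 6 and 4 members differed on the deposited scale, against 78.8%, 88.5%, 69.2% and 62.5% of all genes. The groups did not overlap for 31, 17, 11 and 15 members, against 79.6%, 77.6%, 84.4% and 78.1%. Cpt1a, at 18.5, 24.6 and 31.6 TPM as lowest, median and highest of 7 grafted muscles and 4.24 and 5.16 TPM in the contralateral ones, rose by 2.12 ± 0.27 on day 3, and by 2.04 ± 0.18, 1.51 ± 0.29 and 1.28 ± 0.29 on the later days. Slc27a1, at 24.3, 26.6 and 34.4 TPM against 6.10 and 6.19 TPM, rose by 1.99 ± 0.18 on day 3 and by 1.52 ± 0.12 on day 7. With size factors the day 7 value of Slc27a1 was 0.87 and the day 28 value of Cpt1a 0.96, neither of them called. These 2 genes were the ones called higher.

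The lowest values in the grafted arm on day 3 were those of Acadm (-2.13 ± 0.28), Mlycd (-2.02 ± 0.18) and Acsl6 (-1.95 ± 0.34). Acadm was 70.6, 123 and 139.7 TPM in the grafted muscles and 451 and 489.8 TPM in the contralateral ones, Mlycd was 16.3, 18.9 and 27.2 TPM against 79.2 and 96.4 TPM, and Acsl6 was 5.97, 21.4 and 27.8 TPM against 61.4 and 74.7 TPM. The groups did not overlap for any of these. On day 7, Acsl6 (-1.57 ± 0.23) and Acadm (-1.36 ± 0.19) were called lower. The day 3 calls of Hadh, Etfdh and Plin5 were lost without contralateral replicate 2, with values of -0.93, -0.90 and -0.65. With all mapped libraries the calls of Acadvl, Hadh, Hadhb, Acaa2, Etfdh, Ech1, Echs1, Fabp3 and Crat on day 3 were lost, with adjusted p of 0.0615 to 0.187. No added library came from these day 3 groups, so the estimates were the same and only the shared spread differed.

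The third comparison asked whether the contralateral TA of operated rats that did not run differed from control. Over all days and both arms, 1 member was called higher and 0 lower, against 1.35% and 0.0441% of all genes, and by adjusted p alone 11 were higher, against 24.3%. On day 3, 3 were called higher and 0 lower (7.09% and 0.0618%), and by adjusted p alone 20 were higher (65.7%). On days 7, 14 and 28, 1 was called higher and 0 lower on each day, against 0.9% and 0.141%, 0.953% and 0.0794%, and 0.494% and 0.0177%. By adjusted p alone 3, 4 and 1 members were higher on these days, against 11.8%, 4.4% and 2.1%. The median of all genes was shifted by 0.44 on day 3, and that of the members by 0.47. With size factors these were 0.10 and -0.01.

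The member called on every day was Acot4. Its lowest, median and highest values over 22 non-running contralateral muscles were 1.29, 5.25 and 7.74 TPM, all above the 0.05 to 0.68 TPM of the control muscles, a separation found for 2.58% of all genes. Over all days its log2 fold change was 2.03 ± 0.23 (adjusted p of 4.83e-10), or 2.23 with size factors. Acot4 was tested only because groups of operated rats exceeded 1 TPM on average, so this p is not free of that selection. Acot4 was thus called higher than control both in contralateral muscle and in injured muscle without repair, all of which belong to the other label series. In injured muscle of day 3 its lowest values were 0.33 TPM with a graft and 0.38 TPM in running rats without repair, within the control range. On day 3, Cpt1a (5.26, 3.5, 4.24 and 5.16 TPM) and Mlycd (83.6, 69.5, 79.2 and 96.4 TPM) were also called, with 1.19 ± 0.24 and 1.11 ± 0.15, or 0.91 and 0.64 with size factors. No control muscle reached these values, and on day 3 the 2 groups did not overlap for 19 members and 55.4% of all genes. The call of Mlycd was lost with all mapped libraries (adjusted p of 0.134). The summed level of the 34 members was 5556 to 6710 TPM in the 4 non-running contralateral muscles of day 3, above the 3246 to 5332 TPM of control. In those muscles 16 of the 18 leukocyte and all 10 fibroblast and fibroadipogenic markers tested rose, against 7.09% of all genes, the leukocyte sum was 183 to 405 TPM and the fiber sum 266296 to 303575 TPM, values that also differ from control and whose part in the result was not tested.

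The fourth comparison asked what the graft changed in rats that did not run. Against injured muscle without repair, 0 members were called by limma on any of the 4 days, against 0.00883%, 0.0883%, 0.0265% and 0% of all genes, and 0, 3, 0 and 0 members had an unadjusted p under 0.05, against 17.3%, 27%, 5.23% and 1.24% of all genes. Slc27a1 on day 7 was the one member with an adjusted p under 0.05 (0.0181), at a log2 fold change of 0.40 ± 0.11. The grafted muscles had 12.4, 15.5 and 19.1 TPM of Slc27a1 as lowest, median and highest, overlapping the 8.54 to 15.5 TPM of the non-repaired ones. Cpt1a on the same day was 11.6 to 17.9 TPM with a graft and differed by 0.42 ± 0.17 (adjusted p of 0.102). The difference between the arms in injured against contralateral muscle was called for 0 members on days 3, 7, 14 and 28, as for 0%, 0%, 0% and 0% of all genes. On day 7, 10 of 33 members had an unadjusted p under 0.05 for it, against 11.5% of all genes, the lowest p being that of Acads (-0.45 ± 0.18, adjusted p of 0.415). On days 3, 14 and 28 there were 0 such members, against 2.09%, 0.883% and 0.556%.

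The fifth comparison asked what running changed, and again 0 members were called by limma. In non-repaired injured muscle, 0.0441%, 0%, 0.0177% and 0.0177% of all genes were called on days 3, 7, 14 and 28, and in grafted muscle 0%, 0%, 0% and 0%. In contralateral muscle over days 3 to 14 it was 0%. Unadjusted p under 0.05 was found for 7, 6, 0 and 2 of the 33 members without repair, against 14.5%, 21.3%, 9.96% and 3.79% of all genes. With a graft it was found for 2, 2, 0 and 2 members, against 5.24%, 1.83%, 0.627% and 8.4%, and in contralateral muscle for 3, against 11.1%. The change that running made to the difference between injured and contralateral muscle was also called for 0 members, against 0.0971%, 0.00883% and 0% of all genes on days 3, 7 and 14 without repair and 0.0265%, 0% and 0% with a graft. Unadjusted p under 0.05 was found here for 1, 5 and 0 members without repair, against 10.8%, 8.67% and 1.2%, and for 0, 2 and 0 with a graft, against 2.52%, 2.45% and 0.45%. The lowest p was that of Decr1 on day 7 without repair (-0.47 ± 0.17, adjusted p of 0.552).

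Pdk4 on day 28 had the largest difference with running among the members. Without repair it was 35.4 and 85.2 TPM in the 2 running rats and 329, 181, 283 and 181 TPM in the 4 that did not run, and with a graft it was 64.5 and 70.7 TPM against 122, 323, 142.2 and 248 TPM. The running and non-running muscles did not overlap in either arm, as for 3 of the 33 members without repair and 6 with a graft, Pdk4 included, and for 22.8% and 18.6% of all genes. The log2 fold change was -2.07 ± 0.58 without repair (adjusted p of 0.273) and -1.503 ± 0.58 with a graft (adjusted p of 0.415), so neither passed the correction. The 4 controls had 41.5 to 179.7 TPM. Both muscles of 4 other running rats of day 28 were left out of this comparison, because the title and the labels of these 8 libraries name opposite muscles, so running injured muscles of day 28 are included in part and their contralateral muscles not at all. Over these 8 libraries, injured and contralateral together, Pdk4 was 70.5, 125.5 and 267 TPM as lowest, median and highest.

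**Figure D4:**
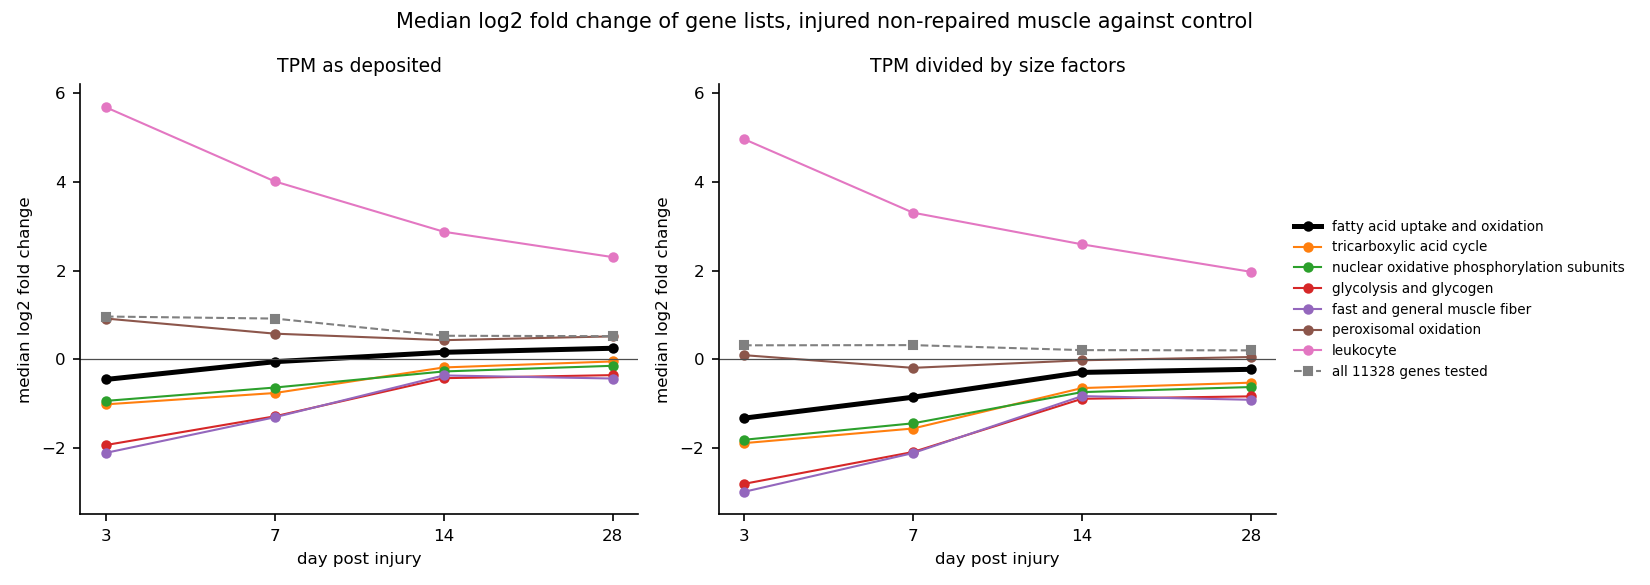
Median log2 fold change of 7 gene lists and of all 11328 genes in non-running injured non-repaired muscle against control, by day post injury, with TPM as deposited on the left and divided by size factors on the right. Lines join the medians of a list. On both scales the fatty acid members lie below the median of all genes and above the citric acid cycle, oxidative phosphorylation, glycolysis and fiber lists on every day.

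Other genes of fat and energy metabolism were described from lists that were fixed by role. Beside the members' median of -0.46 on day 3, 18 other genes of fatty acid uptake, binding and activation had a median of 1.23, or 0.41 with size factors, with 10 higher and 0 lower (6 and 4 with size factors). The counts of these lists on day 3 stand beside 48.3% of all genes higher and 4.24% lower, or 28.4% and 12.3% with size factors, and those on day 28 beside 21.1% and 0.212%. The highest were Fabp5, the binding protein of epidermis and macrophages (5.58 ± 0.29), and Acsl5, a synthetase (3.34 ± 0.20). The lowest, Acss2 (acetyl-CoA synthetase, -0.67 ± 0.15), was within the size limit. On day 28 the median of that list was 0.73, with 7 called higher. For 20 other genes of mitochondrial acyl-CoA metabolism the day 3 median was -0.23, with 2 higher and 3 lower (0 and 11 with size factors), among them the thioesterases Acot9 (1.52 ± 0.18) and Acot13 (-1.38 ± 0.22). For 19 genes of peroxisomal oxidation other than Ech1 it was 0.92, with 7 higher and 4 lower (0.09, 0 and 4 with size factors), led by Hacl1 (1.56 ± 0.14) and Abcd2 (-1.56 ± 0.22).

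Genes of lipid storage included larger changes in both directions. Of 18 tested genes of lipid droplets and lipolysis, 3 rose and 3 fell on day 3, with a median of 0.32 that was -0.51 with size factors (3 and 5 calls). Among all genes 48.3% rose and 4.24% fell. Angptl4, an inhibitor of lipoprotein lipase, had 4.73 ± 0.54 and Plin2, a coat protein of lipid droplets, 4.62 ± 0.23, and on day 28 they still had 2.41 ± 0.50 and 2.06 ± 0.21. Lpin1, a phosphatidate phosphatase that also acts with Ppara, had -2.08 ± 0.28 and G0s2, an inhibitor of adipose triglyceride lipase, -2.002 ± 0.52. Of 28 regulators of oxidative metabolism, 4 rose and 9 fell (1 and 16 with size factors) with a median of -0.59, from Perm1, a muscle regulator of oxidative genes (-3.13 ± 0.50), to Hif1a, the hypoxia-inducible factor (2.57 ± 0.25).

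The other energy pathways stood lower than the members on day 3, where 4.24% of all genes fell, or 12.3% with size factors. Of 23 citric acid cycle genes, 0 rose and 12 fell, or 22 with size factors (median -1.02, with Idh3a, a subunit of isocitrate dehydrogenase, at -1.70 ± 0.20). Of 56 nuclear genes of oxidative phosphorylation, 1 rose and 24 fell, or 55 with size factors (median -0.94). They ran from Cox8b, the subunit form of muscle (-1.77 ± 0.21), to Cox8a, the form of other tissues (2.24 ± 0.16). Of 26 genes of glycolysis and glycogen, 3 rose and 21 fell, or 22 with size factors (median -1.94, from Gpd1 at -3.19 ± 0.37 to Pgam1 at 2.90 ± 0.20). By day 28, 0, 1 and 1 genes of these lists were higher and 0, 0 and 0 lower, with medians of -0.05, -0.15 and -0.36, against 21.1% and 0.212% of all genes. With size factors 1, 0 and 7 were lower on day 28, against 1.58%. The order of these medians describes the lists and was not tested.

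Set against the citric acid cycle within each muscle, which removes the scaling of a library, the members' summed level per 100 TPM of citric acid cycle genes was 42.2 to 46.4 in control. It was 68.0 to 74.3 in injured muscle on day 3 and 52.5 to 58.0 on day 28, and 62.3 to 80.4 and 49.998 to 61.1 in grafted muscle on those days. In contralateral muscle it was 57.4 to 65.6 on day 3 and 42.9 to 47.4 on day 28. Day 3 muscles of either side thus lay above control without overlap, and by day 28 the contralateral muscles overlapped control while the injured ones did not. No test was made of this ratio.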

How the data were processed

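Per the labels, total RNA was taken from tibialis anterior muscles of male Lewis rats. The authors prepared TruSeq libraries, sequenced them as 76 bp paired-end reads on an Illumina HiSeq instrument, and estimated transcripts with kallisto against rat genome build 6.0. They deposited TPM, that is, values divided by transcript length and scaled to the same total in each library. The kallisto version, the strand setting and the depth of each library are not given in the sources used here; the study states an average depth over the libraries. The authors' notes also name DESeq, whose output was not used.

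From 138 libraries, 9 whose labels did not fix a group and 13 under 7000 symbols above 1 TPM were left out, and libraries of 1 muscle were averaged. Values were taken as log2(TPM + 1). One limma 3.58.1 model with an intensity trend (R 4.3.3) was fitted over 31 groups and 114 muscles with 83 residual degrees of freedom, on 11328 genes with a group mean above 1 TPM. Genes were called at a Benjamini-Hochberg adjusted p under 0.05 and a log2 fold change beyond 1. SE is limma's standard error. The model was tested on simulated data for the comparison of injured muscle with control. The simulated noise was independent between muscles, and as many genes were raised as lowered. It could therefore not test the scaling or the muscles that share a rat. The 2 muscles of 1 rat were compared: their deviations from the group means had a mean correlation of 0.0944 over 34 pairs, and -0.0002 between rats, and the rat comes from the labels.

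Genes were named by this rule: all 35 members, with values per muscle for 16 of them and for the 3 highest and 3 lowest called in each comparison, and up to 2 genes at each end of the other lists. The members and lists were chosen with earlier results of these data known. Size factors, another pseudocount, no filter, all mapped libraries, the rat as a block and each muscle left out were tried as alternatives. Promoter windows came from RefSeq (GRCr8).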

Additional observations from a re-analysis of the deposited data

Results flagged for a closer look

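In groups of 4 to 8 muscles, 39 of 542 pairs of a member and a group (7.20%) had 1 muscle whose gap to the nearest other was large against the range of the group by Dixon's test at the 95% level. Chance alone gives about 1 in 20 groups.

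Control replicate 4 was the low value for 7 members, with 43.2 TPM of Cpt2, 157 TPM of Acadl, 167 TPM of Acadm, 106.1 TPM of Hadha, 143.4 TPM of Echs1, 70.7 TPM of Acsl1 and 2.74 TPM of Acot2. Its size factor was 0.473, against a median of 0.752 over the 4 control muscles. Its library had 7866 symbols above 1 TPM, the fewest of the kept libraries, against 8760, 8872 and 8914 in the other controls. The cause was not tested.

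In running injured muscle without repair on day 7, replicate 3 was low for 10 members, with 52.5 TPM of Cpt1b, 80.8 TPM of Acadvl, 138.1 TPM of Etfa, 73.4 TPM of Echs1, 87.2 TPM of Eci1, 48.0 TPM of Slc25a20, 47.7 TPM of Acsl1, 13.7 TPM of Acsl6, 1.79 TPM of Ppara and 90.1 TPM of Crat. On day 3, replicate 6 was high for 4 members, with 205 TPM of Acadm, 67.1 TPM of Slc25a20, 41.9 TPM of Acsl6 and 4.65 TPM of Ppara, and replicate 7 was high for Cd36 with 267 TPM. On day 14, replicate 1 was high with 159 TPM of Echs1 and 186 TPM of Cd36. In running grafted muscle, Echs1 was high on day 3 (80.4 TPM, replicate 5) and Ech1 low on day 14 (163 TPM, replicate 2).

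In non-running muscle on day 7, grafted replicate 3 was low with 156 TPM of Etfa, 94.6 TPM of Eci1 and 3.49 TPM of Plin5, and grafted replicate 6 was high with 123 TPM of Echs1. Without repair, Eci1 was low in replicate 1 (86.4 TPM), Acsl6 high in replicate 7 (52.6 TPM), Pdk4 high in replicate 5 (234 TPM) and Acadvl low in contralateral replicate 4 (131.5 TPM). On day 28, grafted muscle held 92.8 TPM of Etfdh as a high value in replicate 3, 52.6 TPM of Eci2 as a low value in replicate 1 and 16.8 TPM of Ppard as a high value in replicate 2. Non-repaired muscle held 230.2 TPM of Etfa as a low value in replicate 4 and 5.5 TPM of Acot4 as a high value in replicate 2.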

How the results depend on the processing

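The number of members called depended most on the scaling, the size limit and the libraries kept. Shares of all genes tested follow each count in brackets. Against control on days 3, 7, 14 and 28, 9, 4, 2 and 3 members were called (52.6%, 48.1%, 25.5% and 21.3%). Size factors gave 24 and 16 on days 3 and 7 (40.7% and 35.4%), adjusted p alone gave 23, 20, 10 and 12 (85.2%, 88.2%, 72.3% and 71.8%) or, without control replicate 4, 24, 21, 9 and 5 (82.8%, 85.7%, 63.8% and 59.9%), and keeping all mapped libraries gave 7 on day 7 (37.9%). Against contralateral muscle without repair, 11, 3, 1 and 1 (38.2%, 47.4%, 21.1% and 13.3%) became 24, 14, 0 and 0 with size factors (34.4%, 31.6%, 14.5% and 9.53%), 28, 17, 3 and 5 by adjusted p alone (71.9%, 88.3%, 63.7% and 49.7%), and 5 and 18 on days 3 and 7 with all mapped libraries (32.2% and 72.2%). In the grafted arm, 18 members called on at least 1 day (54.9%) became 29 with size factors (44.6%), 32 by adjusted p alone (95%) and 9 with all mapped libraries (52.5%). By adjusted p alone, 1 member differed with the graft (8.24%; 0 otherwise). Contralateral against control, 3 (7.5%) became 1 with size factors (4.11%) and 21 by adjusted p alone (70%), and between days 2 (11.2%) became 5 (9.82%) and 19 (79.5%). The cause was not tested.

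Leaving out 1 muscle at a time gave 7 to 9, 4 to 5, 2 to 4 and 2 to 3 calls against control, 9 to 15, 2 to 4, 1 to 1 and 1 to 1 against contralateral muscle without repair and 15 to 20 in the grafted arm. It gave 3 to 4 for contralateral against control, 1 to 3 between days and 0 to 0 for the graft and for running.

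With the rat as a replicate block (correlation 0.0260), the counts were 9, 4, 2 and 3 against control, 11, 3, 1 and 1 against contralateral muscle, 18 in the grafted arm, 3 and 2 for contralateral muscle and between days, and 0 for graft and running. The block changed the status of 0 of 181 single-gene results. These were all members against control, called or not, and the called members of the other comparisons, so many of them were not calls. Size factors changed 41 and the pseudocount 2 of these 181. No direction of a called value was reversed. TPM keeps no depth, so counting error at low levels such as those of Acot4 is unknown.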
